A study of Mus musculus with 6 samples.

Results

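The genes described here encode the major histocompatibility complex (MHC) of the mouse, whose genes carry symbols that begin with H2, and the proteins that load peptides on its molecules. Every probe of the array was taken whose gene symbol begins with H2-, apart from H2-Ke6, together with the probes of B2m, Cd74, Ciita, Tap1, Tap2, Tapbp, Tapbpl, Erap1, Nlrc5 and Ifi30. This gave 87 probes for 48 genes, of 19057 named genes on the array. There were 30 class I genes with their partner and regulator, 9 class II genes with theirs, 3 H2-DM genes and 6 peptide-loading genes. RNA came from sciatic nerves taken on postnatal day 14, with 3 arrays of mutant mice (genotype label P0 Cre Dicer F or N) and 3 arrays of control littermates, whose titles end in WT and whose alleles are not given further in the sources used here. The sources do not explain F or N either, so the Dicer alleles of each mutant array are not known. Female and male animals are named for every array. The sources do not say how many animals each RNA sample came from, so p-values measure the spread between these arrays, which may be partly technical. P0 is a myelin protein gene, and its promoter drives Cre recombinase in cells of the Schwann lineage. Dicer cuts precursors of microRNAs to their mature form. The series' design text speaks of cultured cells, whereas every array is labelled as nerve, and markers of several nerve cell types were present, as given at the end.

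Class I molecules sit on nearly all cells and show peptides made in the cytosol. Tap1 and Tap2 form the pump that carries these peptides into the endoplasmic reticulum, Tapbp and Tapbpl edit them there, Erap1 trims them, and B2m is the light chain of the class I complex. Class II molecules are pairs of an alpha and a beta chain that show peptides from endosomes. Cd74, the invariant chain, blocks their groove until H2-DM, itself a pair of an alpha chain (H2-DMa) and a beta chain (H2-DMb1 or H2-DMb2), takes out its remnant and edits the peptides bound. Ciita switches on class II genes and Nlrc5 class I genes. In peripheral nerve, resident macrophages are the usual carriers of class II, and Schwann cells can be induced to carry it by interferon gamma.

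The H2-DM genes lie side by side on chromosome 17 and are shown by the sequence before their RefSeq starts because they moved together, next to the same stretch of H2-Aa and H2-Eb1, class II chain genes that were not called. Class II promoters are known for an S-X-Y module, in which RFX proteins and CREB bind the X boxes and NF-Y binds the Y box, and on which Ciita acts. Each window holds 300 bases of GRCm38.p6 from RefSeq, most of them before the start, written 5′ to 3′ on the strand of the gene. Capitals mark the Y box core, ATTGG on either strand, and X box letters, AACNNATG on either strand, which were chosen after these promoters had been read and do not overlap in these windows. H2-DMa has 2 starts in this table.
H2-DMa, first start, chr17:34122582-34122881, plus strand: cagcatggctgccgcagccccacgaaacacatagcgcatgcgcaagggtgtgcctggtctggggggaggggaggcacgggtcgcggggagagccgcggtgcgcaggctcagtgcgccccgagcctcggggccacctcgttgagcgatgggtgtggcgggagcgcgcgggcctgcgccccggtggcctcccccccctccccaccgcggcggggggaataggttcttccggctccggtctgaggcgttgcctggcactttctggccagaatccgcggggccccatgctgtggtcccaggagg
H2-DMa, other start, chr17:34125268-34125567, plus strand: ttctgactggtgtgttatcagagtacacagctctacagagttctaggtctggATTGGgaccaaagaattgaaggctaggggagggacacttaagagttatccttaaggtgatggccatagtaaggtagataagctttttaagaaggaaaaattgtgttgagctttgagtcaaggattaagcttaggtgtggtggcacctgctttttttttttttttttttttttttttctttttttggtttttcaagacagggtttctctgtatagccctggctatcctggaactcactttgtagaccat
H2-DMb2, chr17:34144999-34145298, plus strand: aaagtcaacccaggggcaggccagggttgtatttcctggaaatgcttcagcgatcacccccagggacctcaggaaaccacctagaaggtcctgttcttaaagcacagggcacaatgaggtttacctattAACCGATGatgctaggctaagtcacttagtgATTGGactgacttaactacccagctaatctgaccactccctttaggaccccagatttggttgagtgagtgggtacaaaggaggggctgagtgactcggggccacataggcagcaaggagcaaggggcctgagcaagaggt
H2-DMb1, chr17:34152941-34153240, plus strand: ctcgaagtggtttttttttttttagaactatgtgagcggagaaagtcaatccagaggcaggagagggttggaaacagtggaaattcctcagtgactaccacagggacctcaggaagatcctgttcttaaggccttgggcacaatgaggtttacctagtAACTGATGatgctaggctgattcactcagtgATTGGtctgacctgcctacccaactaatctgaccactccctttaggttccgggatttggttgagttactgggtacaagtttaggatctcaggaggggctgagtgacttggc
H2-Aa, chr17:34287774-34288073, minus strand: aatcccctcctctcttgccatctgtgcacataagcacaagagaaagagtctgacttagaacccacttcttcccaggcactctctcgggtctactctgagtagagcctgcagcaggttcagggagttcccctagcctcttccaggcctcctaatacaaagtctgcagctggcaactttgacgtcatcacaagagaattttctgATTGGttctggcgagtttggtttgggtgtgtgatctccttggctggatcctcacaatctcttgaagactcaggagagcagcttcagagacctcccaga
H2-Eb1, chr17:34305617-34305916, plus strand: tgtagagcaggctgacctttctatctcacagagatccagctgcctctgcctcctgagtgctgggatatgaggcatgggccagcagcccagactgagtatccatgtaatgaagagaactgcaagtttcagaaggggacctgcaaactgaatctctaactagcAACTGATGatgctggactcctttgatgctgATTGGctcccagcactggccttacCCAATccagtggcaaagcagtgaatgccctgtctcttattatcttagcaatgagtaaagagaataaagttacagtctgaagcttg
The H2-DMb1 and H2-DMb2 windows align over 247 bases, of which 208 are identical (84.2%). In both, the X box letters stand 31 bases before the Y box core, counted between their first bases. In H2-Eb1 this distance is 30 bases. The H2-Aa window holds the Y box core without the X box letters searched, as does the other start of H2-DMa, and the first start of H2-DMa holds neither. Which start of H2-DMa is used in these nerves is not known here. A start missing from this table would not be seen, so these windows do not show that H2-DMa lacks the module. Among 32851 promoter windows of the same length in the table, 37.4% hold the Y box core, 8.86% the X box letters and 0.161% both on the same strand with the X letters 20 to 40 bases before the core. The table gave 37 windows for 34 of the 48 genes. Of 5 class II windows outside H2-DM, 5 hold the Y box core and 3 hold both at that spacing. Of 24 class I windows, 21 hold the Y box core and 1 holds both. The class II windows counted include those of H2-Aa and H2-Eb1, read before the letters were chosen. The range of 20 to 40 bases also takes in the distances of 30 and 31 found in the windows shown. Matches in the windows shown are therefore not independent of the pattern searched. These are matches of letters only.

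The array signals stand on a log2-like scale between 7.96 and 15.91. Differences are mutant minus control on that scale, with the moderated standard error (SE) of limma, and adjusted p-values come from limma over all tested probes by Benjamini-Hochberg, with a probe called when this value is under 0.05. Tests were run on the brightest 18420 probes. Of the 87 member probes, 41 were among them, for 25 of the 48 genes, and the 46 others had means between 8.02 and 8.34, near the floor of the scale. Dicer1, which the genotype label names, has 2 tested probes. The brighter had 9.28, 9.10 and 9.13 in mutant arrays against 9.29, 9.17 and 9.13 in control arrays. The other fell by 0.20 (limma adjusted p = 0.0458). With the replicate number as a block it was no longer called (0.0529), nor was it without filtering (0.0558) or without any 1 array but control replicate 3 (0.0602 to 0.15). Neither probe checks the labels, since their place relative to the deleted part is not known here. Among tested probes, correlations between arrays were 0.973 to 0.993 for mutant arrays, 0.992 to 0.995 for control arrays and 0.912 to 0.942 between the groups.

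In mutant nerves all 3 H2-DM genes fell, Tap2 rose, Erap1 rose close to the floor, and the other 20 tested member genes were not called. With the replicate number as a block, Erap1 was not called (limma adjusted p = 0.0526) and H2-Aa was called lower (0.0455). Of the 25 tested genes, 5 (20%) were therefore called, 2 higher and 3 lower, where 39.6% of all 10273 tested genes were called, 22.0% higher and 17.6% lower. Counted by probes, 6 of 41 were called, 2 higher and 4 lower, where 35.8% of all tested probes were called, 19.9% higher and 15.9% lower. Groups did not overlap in 6 of the 25 genes (24%), against 55.2% of all tested genes. The median difference over the 25 genes was 0.05, and that over all tested genes was 0.01. The 3 H2-DM genes were also the only members past a difference of 1 on this scale with a call, which 5.57% of tested genes passed, 2.93% downwards and 2.64% upwards.

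**Figure D1:**
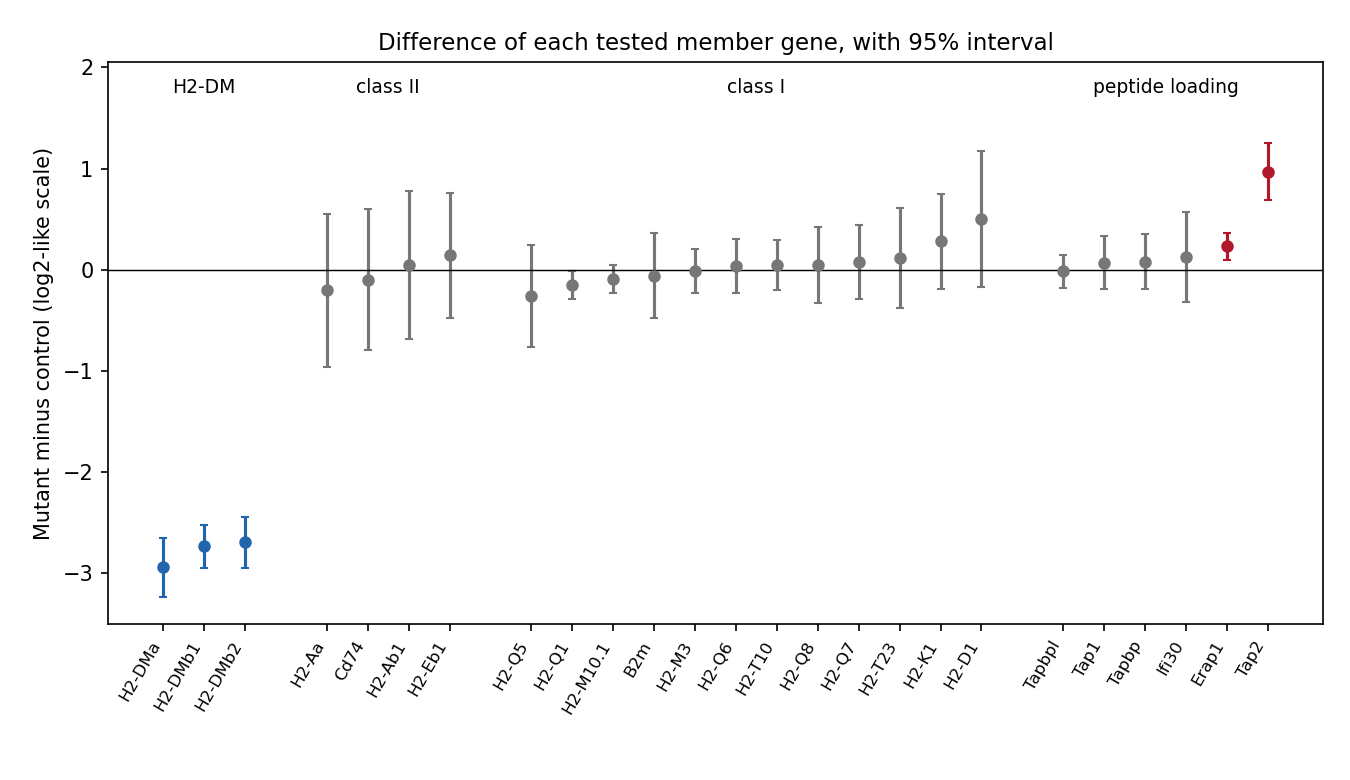
Mutant minus control difference of each tested member gene on the log2-like scale (y axis), by its brightest probe and by class (x axis). Points are limma estimates from 3 mutant and 3 control arrays, bars are 95% confidence intervals without adjustment for multiple tests, and blue, red and grey mark genes called lower, called higher and not called. The 3 H2-DM genes lie between -2.94 and -2.69, and all other members between -0.26 and 0.97.

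H2-DMa, the alpha chain of the class II peptide editor, was read by 2 probes, both tested. The brighter had 9.21, 9.38 and 9.66 in mutant arrays against 12.29, 12.29 and 12.50 in control arrays. All mutant arrays lay far below all control arrays. The means were 9.42 ± 0.225 in mutant nerves and 12.36 ± 0.120 in control nerves (SD, n = 3 each), a difference of -2.94 (SE 0.123, 95% interval -3.23 to -2.65, limma adjusted p = 1.27e-05). The dimmer probe had 8.92, 9.27 and 9.46 in mutant arrays against 11.91, 11.87 and 12.12 in control arrays, a difference of -2.75 (SE 0.145, limma adjusted p = 3.26e-05). Both probes of H2-DMa thus gave the same direction and nearly the same size. Since the tissue was measured in bulk, fewer cells with this transcript and less of it per cell cannot be told apart, here and in all results that follow.

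The beta chain genes moved by nearly as much. H2-DMb1 had 8.69, 8.87 and 9.0 in mutant arrays against 11.56, 11.53 and 11.65 in control arrays, and fell by 2.73 (SE 0.088, limma adjusted p = 6.09e-06). The brighter H2-DMb2 probe had 8.73, 8.92 and 9.11 in mutant arrays against 11.67, 11.50 and 11.68 in control arrays, and fell by 2.69 (SE 0.105, limma adjusted p = 1.01e-05). In both genes the groups were well apart. H2-DMb1 and H2-DMb2 are near-identical copies, so how far each probe reads the other gene is uncertain, and their agreement is not that of independent genes. The other H2-DMb2 probe was near the floor, with 8.11, 8.17 and 8.23 in mutant arrays against 8.23, 8.21 and 8.17 in control arrays, and was not tested. Its groups overlapped, so the fall of H2-DMb2 rests on 1 probe. Ordered from the largest fall among 10273 tested genes, H2-DMa was number 19, H2-DMb1 number 26 and H2-DMb2 number 29. Over the 12 alternative settings tried, the 4 tested H2-DM probes remained called in every one, with differences from -3.06 to -2.60 and limma adjusted p-values of at most 5.7e-04. With the replicate number as a block, these adjusted p-values ran from 9.05e-05 to 1.65e-04.

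The chains on which H2-DM acts were not called, and they differed more between arrays of a group than between groups. H2-Ab1, the beta chain of H2-A, had 9.99, 10.52 and 10.96 in mutant arrays against 9.97, 10.44 and 10.91 in control arrays. H2-Aa, its alpha chain, had 9.90, 10.34 and 10.84 in mutant arrays against 10.06, 10.55 and 11.08 in control arrays. H2-Eb1, the beta chain of H2-E, had 9.51, 9.93 and 10.45 in mutant arrays against 9.49, 9.83 and 10.13 in control arrays. For each of these chains the groups overlapped almost wholly, and the first array of each group was its lowest and the third its highest. Cd74, the invariant chain, had 10.18, 10.30 and 10.64 in mutant arrays against 9.86, 10.50 and 11.04 in control arrays, with the same order and full overlap. The difference was 0.05 for H2-Ab1 (95% interval -0.69 to 0.78), -0.20 for H2-Aa (-0.96 to 0.55), 0.14 for H2-Eb1 (-0.48 to 0.76) and -0.10 for Cd74 (-0.79 to 0.60). The limma adjusted p-values of these 4 genes ran from 0.658 to 0.923, and 0 of them had an unadjusted p under 0.05. Their intervals are wide, the lowest bound being that of H2-Aa at -0.96, and none reaches the size of the H2-DM differences.

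The spread of the class II genes was wide for these arrays. The within-group SD had a median of 0.466 over the 4 tested class II genes, against 0.097 over all tested genes and 0.15 over the H2-DM genes. All 8 tested class II probes were lowest in the first array and highest in the third array of both groups. Arrays with the same replicate number also deviated together over all tested probes (correlations of 0.165, 0.155 and 0.224, against -0.157 to 0.028 for different numbers). The titles state no pairing, but the within-number differences are given for this reason. H2-Aa was lower in the mutant of all 3 such pairs, by -0.16, -0.21 and -0.24. With the replicate number as a block, H2-Aa was called lower (limma adjusted p = 0.0455), which brought the members called lower to 4. For H2-Ab1 the same differences were 0.02, 0.08 and 0.04, for H2-Eb1 0.01, 0.10 and 0.32, and for Cd74 0.31, -0.20 and -0.40, and with the block none of these was called (0.227 to 0.656). The 4 tested H2-DM probes had the same order in mutant arrays, lowest in the first and highest in the third. In control arrays, where they were bright, they varied by at most 0.25 between arrays. There, all 4 were also highest in the third array, but 0 were lowest in the first.

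**Figure D2:**
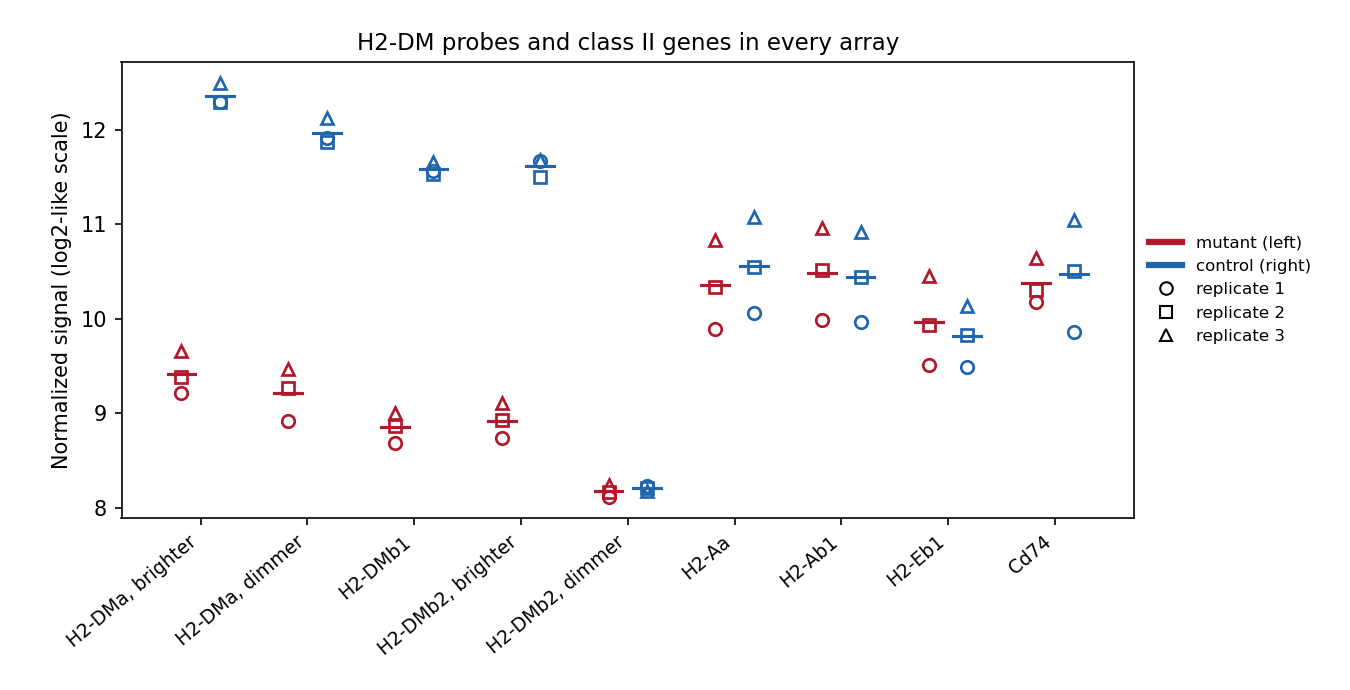
Normalized signal on the log2-like scale (y axis) in each of 3 mutant arrays (red, left) and 3 control arrays (blue, right), for all H2-DM probes and the brightest probe of class II genes (x axis). Symbols mark the replicate number and horizontal lines the group means. The 4 brighter H2-DM probes lie between 8.69 and 9.66 in mutant arrays and between 11.50 and 12.50 in control arrays, while the class II genes overlap and share the order of the replicate numbers.

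The remaining class II genes were dim in both groups. Ciita, the class II switch, had 8.21, 8.15 and 8.19 in mutant arrays against 8.11, 8.22 and 8.32 in control arrays by its brighter probe, which was not tested. No probe of H2-Ea, H2-Eb2, H2-Oa or H2-Ob passed the brightness filter. H2-Oa and H2-Ob form H2-DO, the inhibitor of H2-DM. With all 45281 probes tested, 14.1% were called by limma, and 0 of the 46 dim member probes were among them. That share covers bright and dim probes together, and the share of dim probes alone was not computed, so the 2 are not alike. Of the dim member probes 2, an H2-M2 and an H2-Oa probe, had an unadjusted limma p under 0.05 (0.0145 and 0.0276).

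Among the neighbours of the H2-DM genes some fell and some rose, none by as much as H2-DM. The 10 nearest genes with a probe on each side were taken in the order of the RefSeq table, and 16 of these 20 passed the brightness filter. They had a median difference of 0.06. Of the 10 that are not members of the MHC group, 1 was called higher and 3 lower, where 39.6% of all tested genes were called. Brd2, a chromatin reader gene next to H2-DMa, had 11.02, 10.92 and 10.98 in mutant arrays against 10.83, 10.84 and 10.93 in control arrays and was not called (limma adjusted p = 0.174). Psmb9, a subunit of the immunoproteasome on the other side, had 9.03, 9.46 and 9.48 in mutant arrays against 8.98, 9.54 and 10.11 in control arrays and was not called either (0.587). The largest fall among the neighbours was that of H2-Ke6, which despite its symbol encodes a hydroxysteroid dehydrogenase. It had 11.08, 11.31 and 11.43 in mutant arrays against 12.34, 12.33 and 12.21 in control arrays, and fell by 1.03 (limma adjusted p = 3.71e-04). Rxrb, a retinoid receptor gene, fell by 0.31 (0.0047). Ring1, a Polycomb gene, fell by 0.24 (0.0286), and was not called with the replicate block (0.0678) or without mutant replicate 2 or any 1 control array (0.059 to 0.103). Slc39a7, a zinc transporter gene, rose by 0.29 (0.0446), and was not called without filtering (0.0905), with a trend (0.0716), or without mutant replicate 2 or any 1 control array (0.0692 to 0.135).

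**Figure D3:**
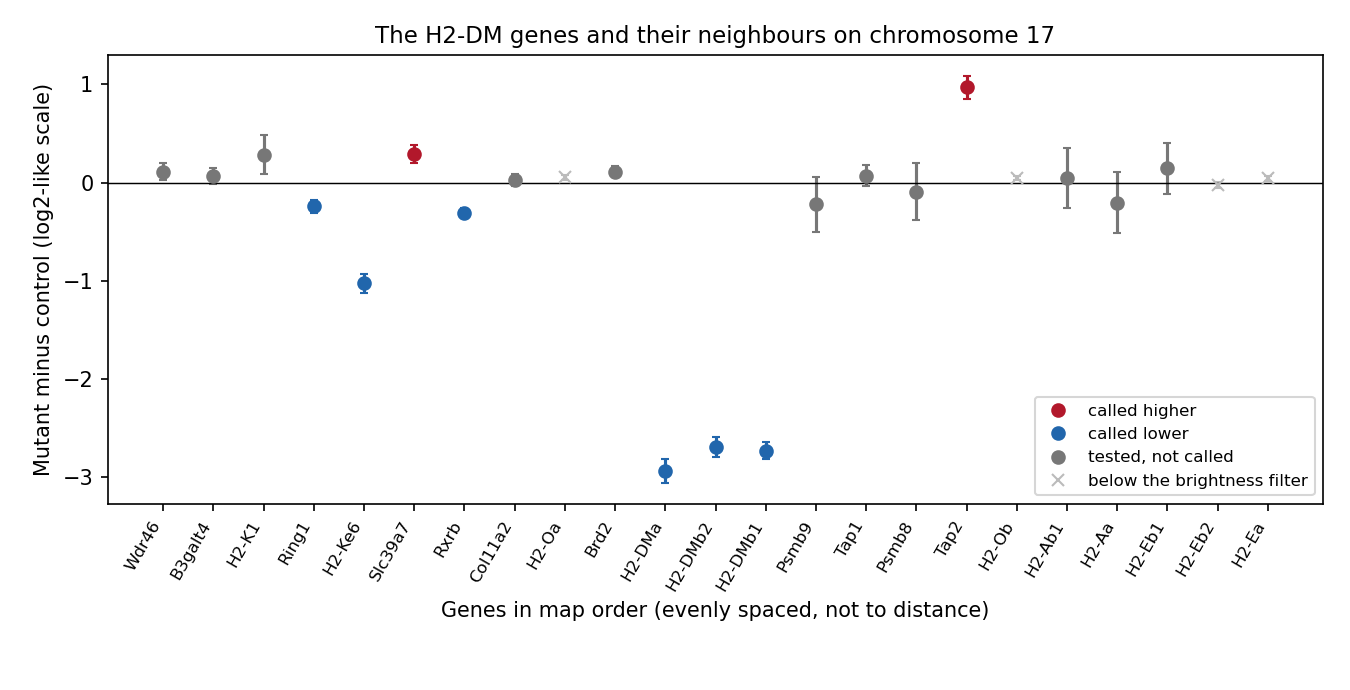
Mutant minus control difference on the log2-like scale (y axis) of the H2-DM genes and the 10 nearest genes with a probe on each side, in map order and evenly spaced (x axis). Points are estimates from 3 mutant and 3 control arrays by the brightest probe, bars are SE, and crosses mark genes below the brightness filter. The H2-DM genes stand at -2.94 to -2.69, between Brd2 at 0.11 and Psmb9 at -0.22.

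Of the peptide-loading genes all 6 passed the filter, and 2 rose, where 39.6% of all tested genes were called and 22.0% rose. Tap2, a subunit of the peptide pump, had 11.20, 11.24 and 11.30 in mutant arrays against 10.04, 10.26 and 10.52 in control arrays. All mutant arrays were above all control arrays, and the difference was 0.97 (SE 0.118, 95% interval 0.69 to 1.25, limma adjusted p = 0.00115). Tap2 stayed called in all 12 alternative settings (adjusted p at most 0.00795) and was number 301 in the order of rises among 10273 tested genes. It has 1 probe on this array. Tap1, the other subunit, had 8.53, 8.54 and 8.47 in mutant arrays against 8.22, 8.43 and 8.67 in control arrays, close to the floor and with overlap (difference 0.07, 95% interval -0.19 to 0.33).

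Erap1, the trimming peptidase, had 8.52, 8.46 and 8.43 in mutant arrays against 8.18, 8.23 and 8.31 in control arrays. The groups did not overlap, and the gene rose by 0.23 (SE 0.057, limma adjusted p = 0.0196). With the replicate block Erap1 was not called (limma adjusted p = 0.0526), nor without mutant replicate 2 (0.0566), control replicate 1 (0.078) or control replicate 2 (0.0688). This probe was itself close to the floor, with a mean of 8.36 over all arrays where the lowest mean kept was 8.34. The 2 further Erap1 probes were dimmer still and not tested, so the rise rests on 1 dim probe. Tapbp, which holds class I near the pump, had 9.0, 8.93 and 9.03 in mutant arrays against 8.67, 8.93 and 9.12 in control arrays. Its relative Tapbpl had 8.60, 8.59 and 8.63 in mutant arrays against 8.49, 8.69 and 8.69 in control arrays. Both overlapped and were not called (0.639 and 0.885). Ifi30, a thiol reductase that opens disulfide bonds of antigens in endosomes, had 10.37, 10.98 and 10.96 in mutant arrays against 10.50, 10.56 and 10.87 in control arrays and was not called (0.643).

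Of 30 class I genes with B2m and Nlrc5, 12 passed the filter and 0 were called by limma, where 39.6% of all tested genes were called. This held also when any probe of a gene counted. By the brightest probe, H2-Q1 alone had an unadjusted limma p under 0.05. B2m, the light chain, was bright, with 14.03, 14.37 and 14.14 in mutant arrays against 13.91, 14.23 and 14.57 in control arrays. H2-K1, a classical heavy chain, had 11.38, 11.24 and 11.20 in mutant arrays against 10.57, 10.98 and 11.40 in control arrays. H2-D1, another, had 12.73, 12.46 and 12.15 in mutant arrays against 11.34, 12.09 and 12.39 in control arrays. In each of these genes the first control array was the lowest of all arrays, and the groups overlapped. The differences were -0.06 for B2m (95% interval -0.48 to 0.36), 0.28 for H2-K1 (-0.19 to 0.75) and 0.51 for H2-D1 (-0.17 to 1.18). The H2-D1 difference ran from 0.20 without control replicate 1 to 0.73 without control replicate 3, and with array weights it was 0.65 and called (limma adjusted p = 0.0447). The second H2-D1 probe gave 0.30 and the third 0.07. Class I genes are much alike in sequence, so a probe may read more than its own gene.

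The nonclassical class I genes were dimmer. The brightest H2-T23 probe, of the gene for Qa-1, had 10.56, 10.85 and 10.95 in mutant arrays against 10.25, 10.71 and 11.05 in control arrays. Another H2-T23 probe was lower in mutants in all 3 same-numbered pairs, at -0.28, -0.25 and -0.17, and with the replicate block it was called (limma adjusted p = 0.0341), while the brighter H2-T23 probes gave 0.12 each. H2-Q5, a transcribed pseudogene in RefSeq, had 10.28, 10.57 and 10.82 in mutant arrays against 10.40, 10.96 and 11.10 in control arrays. H2-Q1 was the class I gene whose groups did not overlap by its brightest probe, where 55.2% of all tested genes did not overlap. It had 8.50, 8.64 and 8.60 in mutant arrays against 8.72, 8.78 and 8.69 in control arrays, without a call (limma adjusted p = 0.0924). Over the 12 tested class I genes the differences ran from -0.26 to 0.51 with a median of 0.04. Nlrc5, the class I switch, was below the filter, with 8.21, 8.16 and 8.17 in mutant arrays against 8.12, 8.32 and 8.61 in control arrays.

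**Figure D4:**
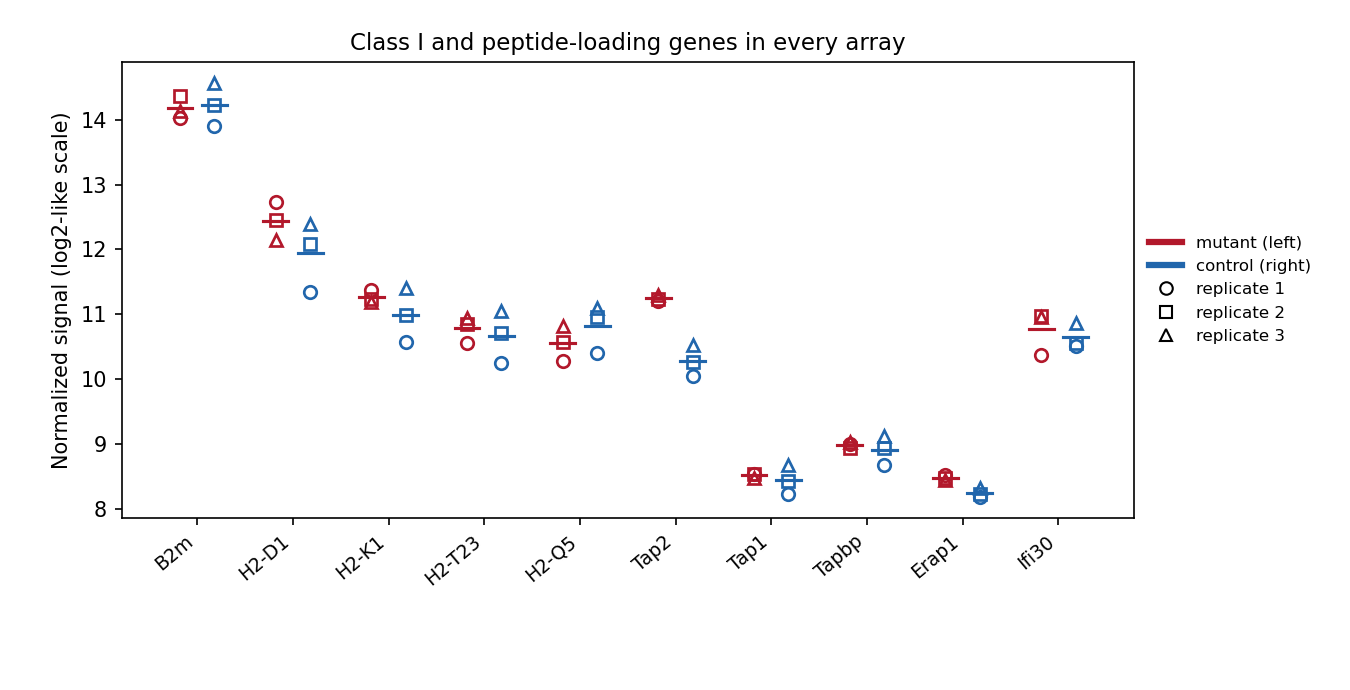
Normalized signal on the log2-like scale (y axis) in each of 3 mutant arrays (red, left) and 3 control arrays (blue, right) for class I and peptide-loading genes by their brightest probe (x axis). Symbols mark the replicate number and horizontal lines the group means. Tap2 lies between 11.20 and 11.30 in mutant arrays and between 10.04 and 10.52 in control arrays, and among the class I genes shown all groups overlap.

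Other genes of antigen presentation moved in several ways. The largest change in these lists was in Hfe, a class I-like molecule that binds B2m and controls iron uptake. Hfe had 11.98, 11.89 and 11.79 in mutant arrays against 9.87, 9.79 and 9.96 in control arrays, wholly apart, and rose by 2.02 (SE 0.073, limma adjusted p = 8.31e-06), with 1.32 at its dimmer probe. Of 10 class I-like genes outside the H2 cluster, 5 were tested, 1 rose and 1, Fcgrt, fell. Of all tested genes, 22.0% rose and 17.6% fell. Fcgrt, the neonatal Fc receptor, had 13.92, 13.81 and 13.73 in mutant arrays against 14.03, 14.13 and 13.99 in control arrays by its brighter probe. That probe fell by 0.23 (limma adjusted p = 0.0436), but was not called in 9 of 12 alternative settings, the replicate block (0.0565) among them (0.0565 to 0.138). A dimmer Fcgrt probe fell by 0.52 (8.24e-04), with all arrays apart. Cd1d1 and Mr1, which show lipids and vitamin metabolites, were not called (adjusted p = 0.998 and 0.938).

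Of 14 regulators of MHC transcription, 10 were tested, 3 rose and 2 fell, where 39.6% of all tested genes were called, 22.0% higher and 17.6% lower. Jak1, a kinase of interferon receptors, had 9.23, 9.26 and 9.31 in mutant arrays against 10.50, 10.34 and 10.58 in control arrays, and fell by 1.21 (SE 0.072, limma adjusted p = 5.87e-05). A dimmer Jak1 probe gave 0.17 in the other direction and was not called (0.312), so the fall rests on 1 probe. Irf1, an interferon-induced activator of class I genes, had 12.66, 12.29 and 12.22 in mutant arrays against 11.40, 11.75 and 11.88 in control arrays, and rose by 0.71 (0.014). Its relative Irf2 rose by 0.65 (2.68e-04) and the receptor chain Ifngr1 by 0.31 (0.023). Ifngr1 was not called without mutant replicate 2 or 3 or control replicate 1 or 3 (0.05 to 0.0792). Nfyb, a subunit of the Y box factor NF-Y, fell by 0.31 (0.00817), and Nfya and Nfyc were not called, at 0.12 and 0.32.

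Of 6 genes of the immunoproteasome and its activator, 1 rose and 0 fell by limma, where 22.0% of all tested genes rose and 17.6% fell. The same 1 had an unadjusted p under 0.05. It was Psme3, at 0.28 (limma adjusted p = 0.0173), which lost its call without mutant replicate 2 or control replicate 1 or 3 (0.0562 to 0.0593). Psmb10 stood at -0.36 and was called lower with the replicate block (0.0377). Psmb8 had 10.07, 10.32 and 10.48 in mutant arrays against 9.81, 10.34 and 11.01 in control arrays, with overlap. The 3 tested chaperones of class I folding rose, where 22.0% of all tested genes rose. Pdia3 was at 0.79 (0.0248), Calr at 0.54 (0.00501) and Hspa5 at 0.33 (0.0238). Without control replicate 1 or 2 only Calr of these was called, Pdia3 also lost its call without filtering (0.0738), without mutant replicate 2 (0.0565) and without control replicate 3 (0.083), and Hspa5 with the replicate block (0.0594).

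All 8 genes of endosomal proteolysis were tested, and 3 rose, where 22.0% of all tested genes rose. Lgmn, an asparagine endopeptidase that cuts antigens and the invariant chain, had 12.29, 12.32 and 12.20 in mutant arrays against 11.28, 11.32 and 11.31 in control arrays, and rose by 0.97 (SE 0.052, limma adjusted p = 3.71e-05). Ctsb, a lysosomal protease gene, rose by 0.57 (0.00453). Ctss, the protease that trims the invariant chain, rose by 0.25 (0.0315), a call lost without mutant replicate 2 or 3 or control replicate 1 or 2 (0.0632 to 0.109). Of 8 costimulatory genes 3 were tested and 0 called by limma, with 1 at an unadjusted p under 0.05, where 39.6% of all tested genes were called. Cd86 was at -0.18, and called lower without control replicate 2 (limma adjusted p = 0.0474) and with array weights (0.00896). Cd274 was at -0.39, and called lower without control replicate 1 (0.0308). Of 3 tested genes of class II turnover 0 were called by limma, against the same 39.6%, with 1 at an unadjusted p under 0.05. Sppl2a, a protease of the Cd74 remnant, was at -0.04, and Marchf8, a ubiquitin ligase, at -0.17 and called lower with array weights (0.03). Cd83, which keeps class II at the surface, was at 0.29 (0.0659). It was called higher with the replicate block (0.0444), a trend (0.0452), array weights (0.00586) and without mutant replicate 3 (0.00918).

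**Figure D5:**
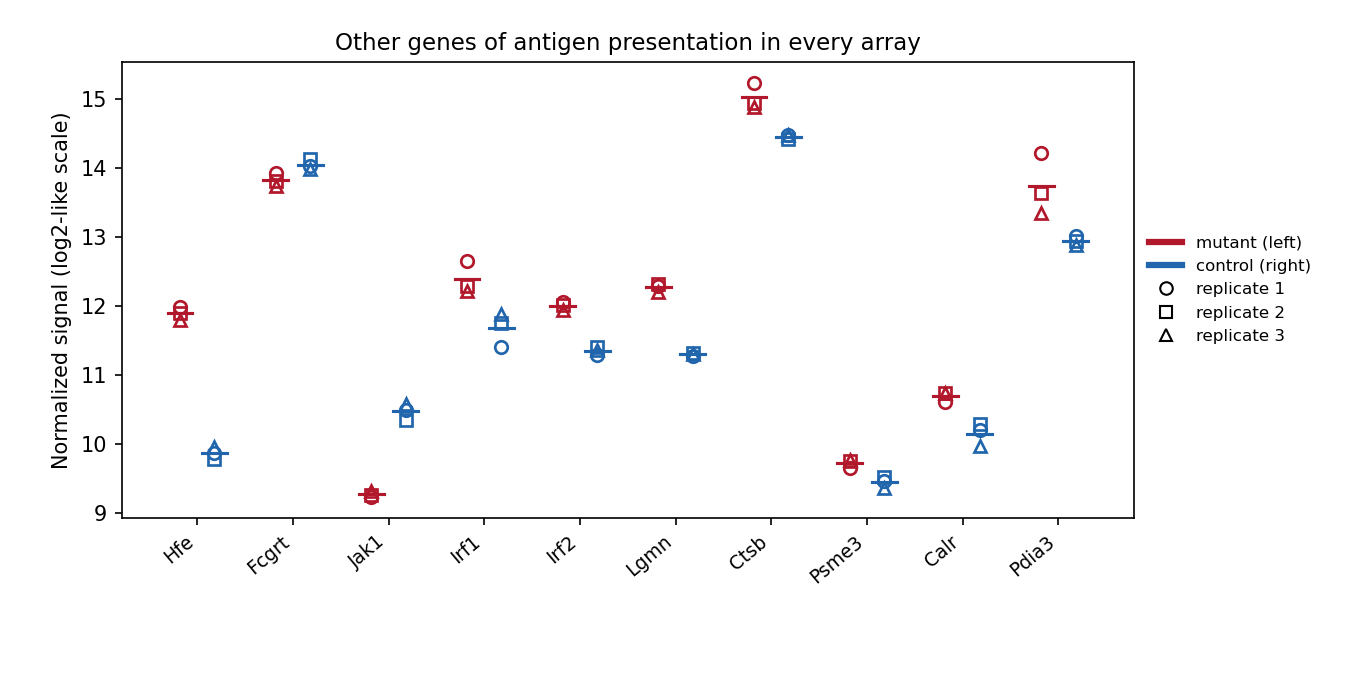
Normalized signal on the log2-like scale (y axis) in each of 3 mutant arrays (red, left) and 3 control arrays (blue, right) for other genes of antigen presentation by their brightest probe (x axis). Symbols mark the replicate number and horizontal lines the group means. Hfe lies between 11.79 and 11.98 in mutant arrays and between 9.79 and 9.96 in control arrays, and Jak1 between 9.23 and 9.31 in mutant arrays and between 10.34 and 10.58 in control arrays.

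Markers of cells that carry MHC genes were set beside these results, and their part in them was not tested. The counts that follow stand beside 39.6% of all tested genes called, 22.0% higher and 17.6% lower. Of 17 macrophage markers 14 were tested, 3 rose (Mpeg1, Cx3cr1 and Laptm5) and 1, Cd163, fell. Their mean level was 10.45 to 10.63 in mutant arrays and 10.33 to 10.50 in control arrays, and 5 rose without mutant replicate 1 or with array weights. With the replicate block Adgre1 was called higher too (limma adjusted p = 0.0359). Of 12 dendritic cell markers 6 were tested, which left out Itgax, Flt3, Xcr1 and Clec9a as too dim. Clec9a, near the floor, stood at 0.13 and was called with all probes tested (limma adjusted p = 0.00732). Irf8 rose by 0.41 and Clec10a fell by 0.46, which among the 6 fits that left out an array was called only without mutant replicate 3. None of 6 B cell markers passed the filter, and of 9 T cell markers the 7 left out included Cd3e, Cd4 and Cd8a. Cd8b1, bright for a T cell marker, had 11.48, 11.42 and 11.56 in mutant arrays against 12.51, 12.42 and 12.80 in control arrays and fell by 1.09 (limma adjusted p = 3.88e-04). Cd247, the other T cell marker tested, stood at -0.05 and was not called (limma adjusted p = 0.644). Below the filter, Cd5 stood at -0.02, Cd8a at -0.001, Cd4 at 0.006 and Cd2 at 0.007. Cd3e stood at 0.15, Cd3g at 0.17 and Cd3d at 0.11, all near the floor and not called with all probes tested (0.0542, 0.0793 and 0.205), with mutant arrays above control arrays for Cd3e and Cd3g. A second, dim Cd8b1 probe stood at 0.16, also with mutant arrays above control arrays, so the fall of Cd8b1 rests on 1 probe. Of 20 interferon response genes 14 were tested, and Cxcl10, Rsad2 and Ddx58 rose, Cxcl10 by 1.41. Without control replicate 2 only Cxcl10 of these was called, and Rsad2 was also not called without filtering (limma adjusted p = 0.0642), mutant replicate 3 (0.0549) or control replicate 1 (0.0777). Other settings added lower calls to the list. There were 3 without control replicate 1 (Igtp, Isg15 and Usp18, with Igtp at -1.42), 2 with the replicate block (Isg15 and Ifit3), 2 with array weights (Isg15 and Irgm1), and 1, Isg15, with a trend or the stricter filter. Their mean level was 9.61 to 9.70 in mutant arrays and 9.34 to 9.94 in control arrays. Of 5 tested Schwann lineage genes, Ngfr rose, S100b fell, and Sox10, at 13.98 in mutant and 13.94 in control nerves, was not called. Of 8 tested endothelial markers 2 fell (Cldn5 and Vwf). Vwf was not called without filtering or without mutant replicate 2, mutant replicate 3 or control replicate 1 (limma adjusted p 0.0505 to 0.0667). With the replicate block Pecam1 was called higher (0.0313), and with array weights 4 endothelial markers were called lower. Of 7 fibroblast and perineurial markers 3 rose (Lum, Col1a1 and Itgb4), and Slc2a1 was called lower with array weights (0.00671) and without mutant replicate 1 (0.0195).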

How the data were processed

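Total RNA of 6 sciatic nerve samples was read on Mouse WG-6 version 2 bead arrays, 3 mutant and 3 control. The deposited values are log2-like signals. Per the labels, RMA and limma were applied by the authors, and lumi 1.8.3 is listed in the submitters' processing notes. Plain log2 and a variance-stabilised scale could not be told apart, so no fold change is given. On a stabilised scale, differences of dim probes would be understated. All 6 columns share 1 distribution, with sorted values within 2.54e-04 of each other.

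The authors' present calls were not used here. Instead the brightest 18420 probes by mean, the number the design text kept, were fitted with limma 3.58.1 in R 4.3.3 (lmFit, eBayes, 2-sided, 4 residual and 2.63 prior degrees of freedom). Benjamini-Hochberg adjustment covered all fitted probes. Probes were named from the platform annotation, and identifiers of all 87 member probes matched RefSeq (GRCm38.p6) with 0 symbols changed. A gene is represented by its brightest tested probe. Precision is limited by having 3 arrays a group. The fit was tested on simulated data.

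Members and gene lists were chosen with earlier results of these data known. By rule, array values are given for called member probes, all H2-DM probes and the main genes of each class, and other lists are described by up to 4 called genes, or the 2 brightest where none was called. H2-Q1, H2-Q5, H2-T23, Nfya, Nfyb, Nfyc, Psmb8, Psmb10, Cd1d1, Mr1, Cd83 and second probes of list genes were named after their values were seen. Same-numbered arrays (titles MT1 to MT3 and WT1 to WT3) deviated together in all 3 pairs, with correlations of 0.165, 0.155 and 0.224. Arrays of different numbers gave -0.157 to 0.028. Deviations were taken within each group, so these correlations are not independent of each other. The titles state no pairing, but the numbers were taken to pair the samples, and a fit with the number as a block was run. Other alternatives were a stricter brightness filter, no filter, centring, a mean-variance trend, array weights and leaving out each array.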

Additional observations from a re-analysis of the deposited data

How the results depend on the processing

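The 3 H2-DM genes and Tap2 kept their direction and their call in all 12 alternative settings. Over the 41 tested member probes and these settings, 480 values were computed, of which 471 kept the call of the report, 5 gained a call and 4, all of Erap1, lost it. No called member probe changed sign, while 24 of the member probes that were not called did so in some setting. The number of member genes called higher, 2 in the report, was 1 with the replicate block, 1 with the stricter filter of 12000 probes, which leaves out Erap1, and 4 with array weights, which add H2-D1 and Ifi30 and give mutant replicate 1 a weight of 0.208. Leaving out single arrays, it ran from 1 to 2. The number called lower was 3 in all settings but the replicate block, where it was 4 with H2-Aa. Among tested member probes the block changed the calls of Erap1, H2-Aa and 1 H2-T23 probe, and no other. Array weights also called an H2-T10 probe (0.18, limma adjusted p = 0.0313). Centring the arrays changed nothing, since the tested probes share 1 median of 9.18. Where a gain or loss is given, the cause was not tested. Class II genes, with a median SE of 0.299 against 0.0758 over all tested genes, limit which differences could be called.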
